A study of Mus musculus with 24 samples.

Results

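The genes described here encode the machinery that brings secretory proteins into the endoplasmic reticulum (ER) and carries them out of it in coated vesicles. They are 44 genes given as a list, chosen by name and function, but with earlier results of these data known. All 44 were found among the 56884 genes of the count table and passed the expression filter, so that they are 44 of the 13679 genes tested. They fall into the Sec61 channel with its partners (5 genes), signal peptidase (5), the signal recognition particle (SRP) and its receptor (8), the translocon-associated protein complex, TRAP (4), the COPII coat (10), the COPI coat (7) and receptors for cargo and retrieval (5).

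As a secretory protein emerges from the ribosome, SRP binds its signal sequence and docks with the SRP receptor at the ER membrane. The chain then enters the Sec61 channel, TRAP assists its entry, signal peptidase cuts off the signal sequence, and the neighboring oligosaccharyltransferase attaches the N-linked sugar. COPII coats form vesicles that leave the ER for the Golgi, COPI coats form vesicles that return, and KDEL receptors bring escaped ER chaperones back. Macrophages use this route for the cytokines, lectins and lysosomal enzymes that they make.

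Bone marrow–derived macrophages, grown from marrow with M-CSF, came from 4 wild-type C57BL/6J female mice of 9 weeks, numbered 1, 2, 4 and 5. Marrow of every mouse was used for all 6 conditions, which gave 24 libraries. Cells were left naive, were given IL-4 and IL-13 (20 ng/ml each, 24 hours) alone, or were given the same cytokines with an inhibitor. Inhibitors were given for 1 hour beforehand and again together with the cytokines for the 24 hours. Tunicamycin (5 µg/ml) prevents the start of N-linked sugar synthesis, Sal003 (10 µM) prevents dephosphorylation of eIF2α, and oligomycin (1 µM), an inhibitor of mitochondrial ATP synthase, was given to 2 groups. One of the oligomycin groups also had ISRIB at 1 µM, a compound that counteracts the integrated stress response, but sample titles and library names contradict each other on which for all 8 libraries. The group with ISRIB by title is called set A, and the group with ISRIB by library name is called set B.

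Reads counted on genes numbered 16238727 to 26725278 per library (median 18999998), and the biological variation between mice, as a median coefficient, was 5.75% for the 44 genes and 7.06% for all genes tested, so that small differences could pass the test. The naive library of mouse 2 stood apart from the other naive libraries in 6 of the 44 genes. All 6 macrophage markers checked were detected in every group. The summed level of 5 neutrophil markers was 16.6 to 30.2 CPM (counts scaled to a common, normalized library size) with IL-4/IL-13 and 0 to 0.286 CPM with tunicamycin, where 2 of the 5 were at 0 in every library. It was 29.8 to 60 CPM in naive macrophages, 3.84 to 6.38 CPM with Sal003, 14.3 to 18.3 CPM in set B and only 1.9 to 3.67 CPM in set A. The 3 T cell markers summed to 10 to 13.6 CPM in naive macrophages and 1.61 to 2.53 CPM with IL-4/IL-13, and the macrophage markers to 3.01e+04 to 3.58e+04 CPM in naive macrophages, 1.13e+04 to 1.37e+04 CPM with IL-4/IL-13 and 8.45e+03 to 9.3e+03 CPM in set A. That of 3 fibroblast markers was 14.3 to 81.4 CPM with IL-4/IL-13 and 3.36 to 23.5 CPM with tunicamycin. The part of these cells in the results was not tested, and in bulk RNA a change in the number of cells of a type cannot be told apart from a change in RNA per cell. Some counts are uncertain because sequence is shared or because genes overlap and it is not stated whether counting used the strand. Shared sequence and overlaps were measured on GENCODE M39 genes, while reads were counted on Ensembl 110 genes. *Srp54a* shares 81.1% of its transcript with near-identical copies, *Srp9* 24.9% and *Sec61g* 20%, while 20.3% of *Srpr*, 19.7% of *Ssr2*, 12.3% of *Srp14* and 11.9% of *Srp9* lie opposite transcripts of the other strand.

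The comparison of tunicamycin with IL-4/IL-13 alone asks how the pathway responds when N-linked glycosylation fails. Nearly the whole machinery rose: 43 of the 44 genes were higher at an adjusted *P* under 0.05, none was lower, and 1, *Kdelr3*, was not past the test (edgeR's quasi-likelihood test, Benjamini-Hochberg adjustment over all genes tested). Over all genes tested, 38.7% were higher and 37.6% lower in this comparison, 76.3% in all. The median log2 fold change was 1.35 over the 44 genes and 0.01 over all genes tested. At least 2.5-fold rises were found in 24 of the 44 genes, against 8.56% of all genes. Every tunicamycin library was above every IL-4/IL-13 library in 43 of the 44 genes, a separation seen upward in 37.8% of all genes. The 44 genes took 0.511% ± 0.00797 (SD, n = 4 mice) of gene counts with IL-4/IL-13 and 1.44% ± 0.0126 with tunicamycin. The count of 43 was the same under every alternative setting tried, including the removal of each mouse in turn.

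**Figure D1:**
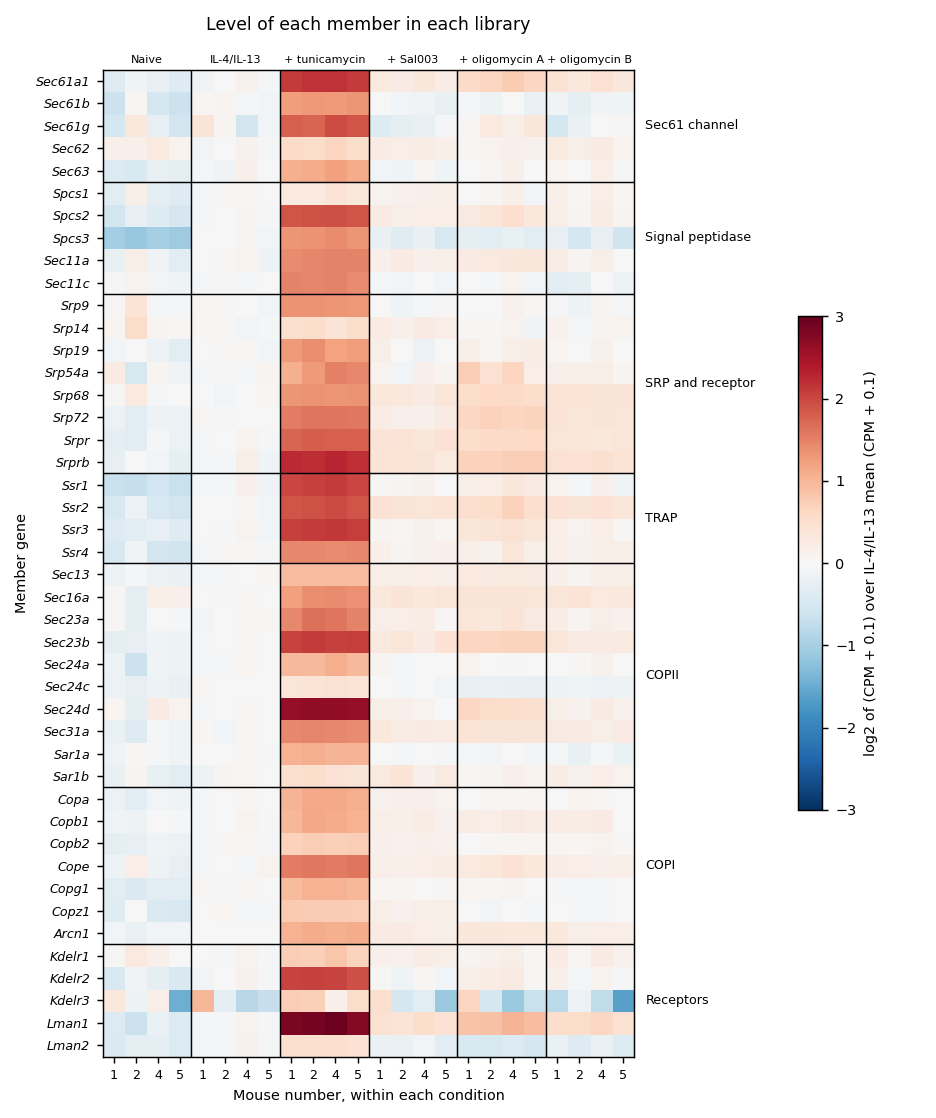
Heat map of the 44 genes (rows, by complex) in the 24 libraries (columns, by condition and mouse number), colored by log2 of CPM + 0.1 over the IL-4/IL-13 mean + 0.1. The 4 tunicamycin columns are red in nearly every row, most deeply for *Lman1* and *Sec24d*, while the other inhibitor columns are pale.

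On the targeting side, all 8 genes of SRP and its receptor rose with tunicamycin, 6 of them at least 2.5-fold, with a median log2 fold change of 1.35. The largest folds of the 8 were those of the receptor subunits. *Srprb* (ENSMUSG00000032553, GRCm39 chromosome 9, 103065219 to 103079347), the membrane-anchored β subunit, had 54.4, 53.9, 62.6 and 50.8 CPM with IL-4/IL-13 in mice 1, 2, 4 and 5, and 262.5, 258.9, 268.2 and 255.2 CPM with tunicamycin. The groups lie far apart, and the fold change was 4.71 (log2 2.24, standard error 0.06; edgeR's quasi-likelihood test, adjusted *P* = 2.35e-21). *Srpr*, the GTPase α subunit, rose 3.45-fold, although part of it lies opposite another gene. Among the proteins of the particle, *Srp72* rose 3.00-fold, *Srp54a*, which binds the signal sequence, 2.55-fold, *Srp9* 2.53-fold, *Srp68* 2.52-fold and *Srp19* 2.43-fold. *Srp14*, which pairs with *Srp9*, rose only 1.40-fold.

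At the channel, all 5 genes rose and 2 of them at least 2.5-fold. *Sec61a1* (ENSMUSG00000030082, chromosome 6, 88480561 to 88495899), the pore-forming subunit, had 204.4, 219.6, 239.0 and 215.1 CPM with IL-4/IL-13 and 938.2, 980.2, 988.3 and 935.2 CPM with tunicamycin. No library of one group approached the other, and the fold change was 4.38 (log2 2.13, standard error 0.06; edgeR's quasi-likelihood test, adjusted *P* = 1.79e-20). *Sec61b* rose 2.45-fold and *Sec61g* 3.73-fold, the latter at only 21 to 126 counts per library in these groups. The partners *Sec63*, which recruits the chaperone BiP to the channel, and *Sec62* rose 2.19-fold and 1.49-fold.

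The 4 TRAP subunits all rose by at least 2.5-fold, with the largest median of the 7 groups of genes, 1.98 on the log2 scale. *Ssr3* (ENSMUSG00000027828, chromosome 3, 65287076 to 65300044) went from 377.9, 369.8, 403.1 and 358.6 CPM to 1558, 1603, 1630 and 1582 CPM. *Ssr1* (ENSMUSG00000021427, chromosome 13, 38149556 to 38178224) went from 205.0, 201.6, 233.5 and 195.2 CPM to 841.1, 871.0, 893.0 and 835.3 CPM. Neither gene's groups overlap, and the log2 fold changes were 2.08 and 2.04 (standard errors 0.05 and 0.06; edgeR's quasi-likelihood test, adjusted *P* = 2.87e-22 and 2.01e-20). *Ssr2* rose 3.79-fold and *Ssr4* 2.71-fold. All 5 signal peptidase genes rose as well, *Spcs2* by 3.73-fold, *Spcs3* by 2.55-fold and the alternative catalytic subunits *Sec11a* and *Sec11c* by 2.77-fold and 2.76-fold. *Sec11a* went from 51.9, 53.2, 56.0 and 47.1 CPM to 140.3, 144.2, 146.4 and 146.2 CPM, and *Sec11c* from 84.6, 88.9, 83.6 and 87.1 CPM to 242.5, 235.8, 240.3 and 231.7 CPM, both without overlap. The exception in size was *Spcs1*, whose 1.25-fold rise was the smallest of the 43, from 91.7 to 98.5 CPM with IL-4/IL-13 to between 116.2 and 125.9 CPM with tunicamycin.

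The sequences below carry 1 feature that many of these genes share beside their response. Windows from 250 bases before to 50 bases after the start were available from RefSeq for 35 of the 44 genes, 37 windows in all, and were searched on both strands for 6 short motifs. The letters ACGTGGC, the core of the Golgi stress response element, were in 13 of the 37 windows (35.1%) and in 3.75% of 12704 windows of the tested genes. TGACGTGG, the unfolded protein response element bound by XBP1 and ATF6, was in 5 of 37 (13.5%) against 0.819%, and its last letters overlap those of ACGTGGC. Neither is particular to the 44 genes. In 91 windows of other genes of the early secretory pathway, described below, ACGTGGC was in 12 (13.2%) and TGACGTGG in 4 (4.4%). TGACGTCA, the cyclic AMP response element, was in 1 window (2.7%, against 2.88%). The ER stress response elements ERSE and ERSE-II and the C/EBP-ATF element TGATGCAA were in none, against 0.134%, 0.0708% and 0.63% of all windows. With starts taken from GENCODE and only the 250 bases before them, ACGTGGC was in 7 of 44 windows (15.9%) against 3.1% and TGACGTGG in 2 (4.55%) against 0.644%. These windows differ from the RefSeq ones in start, in length and in the genes covered. In *Copb2*, *Copg1*, *Sec23a*, *Sec31a* and *Sec13* the RefSeq match lies wholly or partly after the start. The 250 bases before the RefSeq start, located in GRCm39 by exact match, are given 5′ to 3′ for *Sec24d*, *Srprb*, *Ssr1* and *Ssr3*, chosen because they are among the 8 largest rises and hold ACGTGGC, and for *Sec24c*, which holds it and rose least of the COPII genes. Of the other 4 of these 8, *Sec23b* has RefSeq windows without any of the motifs, and no RefSeq window of *Lman1*, *Sec61a1* and *Kdelr2* was analysed here. Capitals mark TGACGTGG and ACGTGGC or their reverse complements.
Sec24d (chr3:123060895-123061144, plus strand): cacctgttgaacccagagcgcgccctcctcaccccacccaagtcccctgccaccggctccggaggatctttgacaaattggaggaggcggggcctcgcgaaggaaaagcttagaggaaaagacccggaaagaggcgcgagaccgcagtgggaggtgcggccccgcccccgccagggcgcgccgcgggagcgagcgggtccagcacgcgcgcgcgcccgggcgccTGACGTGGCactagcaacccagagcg
Srprb (chr9:103079265-103079514, minus strand): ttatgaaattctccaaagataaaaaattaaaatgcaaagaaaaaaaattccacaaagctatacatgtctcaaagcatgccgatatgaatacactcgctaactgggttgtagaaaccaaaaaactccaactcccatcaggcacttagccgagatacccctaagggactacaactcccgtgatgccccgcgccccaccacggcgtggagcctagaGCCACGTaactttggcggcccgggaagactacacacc
Ssr1 (chr13:38178185-38178434, minus strand): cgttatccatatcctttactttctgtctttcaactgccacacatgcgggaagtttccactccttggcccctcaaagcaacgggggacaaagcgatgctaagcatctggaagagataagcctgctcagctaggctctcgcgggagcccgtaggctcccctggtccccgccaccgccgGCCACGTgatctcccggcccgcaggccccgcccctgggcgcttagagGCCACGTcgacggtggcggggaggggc
Ssr3 (chr3:65299975-65300224, minus strand): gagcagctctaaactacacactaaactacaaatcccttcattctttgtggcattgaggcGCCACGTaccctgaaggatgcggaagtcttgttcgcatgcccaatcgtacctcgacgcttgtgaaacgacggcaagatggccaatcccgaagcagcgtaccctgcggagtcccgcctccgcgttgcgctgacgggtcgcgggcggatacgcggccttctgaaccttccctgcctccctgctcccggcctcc
Sec24c (chr14:20724139-20724388, plus strand): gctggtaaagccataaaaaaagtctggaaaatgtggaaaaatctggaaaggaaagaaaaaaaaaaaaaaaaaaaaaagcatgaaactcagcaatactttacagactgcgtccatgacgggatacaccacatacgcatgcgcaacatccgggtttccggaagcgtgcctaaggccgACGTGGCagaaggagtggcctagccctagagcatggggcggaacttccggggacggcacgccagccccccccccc
In *Sec24d* both motifs share letters 26 to 18 bases before the start, and *Ssr1* holds ACGTGGC in 2 places. Fold changes with tunicamycin ran from 1.25 to 6.32 in the 13 genes with ACGTGGC, which include *Kdelr3*, and from 1.37 to 4.19 in the 22 without it. The median log2 fold changes were 1.13 and 1.32. The letters are a description of these windows and not shown to be sites of binding.

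All 10 COPII genes rose with tunicamycin, 5 of them at least 2.5-fold, but their sizes spread widely within pairs of paralogs. *Sec24d* (ENSMUSG00000039234, chromosome 3, 123061103 to 123159291), one of the cargo-selecting subunits, had 63.3, 65.6, 67.5 and 65.1 CPM with IL-4/IL-13 and 408.6, 416.4, 416.6 and 410.4 CPM with tunicamycin. Its fold change of 6.32 (log2 2.66, standard error 0.07; edgeR's quasi-likelihood test, adjusted *P* = 4.88e-21) was the second largest of the 44. The paralog *Sec24a* had 43.3, 43.8, 46.6 and 44.98 CPM with IL-4/IL-13 and 87.2, 87.5, 94.7 and 88.5 CPM with tunicamycin, a 2.00-fold rise. For *Sec24c* the libraries held 212.8, 205.0, 207.1 and 207.4 CPM and 269.8, 275.7, 284.5 and 277.1 CPM, a 1.33-fold rise. All 3 paralogs separated the groups, but by very different distances.

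The other COPII pairs differed less. *Sec23b* (ENSMUSG00000027429, chromosome 2, 144391970 to 144432684), which activates the GTPase SAR1 in the inner coat, went from 61.9, 63.4, 64.9 and 63.7 CPM to 259.2, 272.1, 265.4 and 266.4 CPM, a 4.19-fold rise (log2 2.07, standard error 0.04; edgeR's quasi-likelihood test, adjusted *P* = 3.49e-23). Its paralog *Sec23a* went from 30.9, 32.8, 34.3 and 33.6 CPM to 89.96, 103.0, 99.8 and 92.2 CPM, a 2.93-fold rise. Of the GTPases themselves, *Sar1a* went from 127.2, 128.6, 132.7 and 125.4 CPM to 262.9, 271.3, 260.8 and 259.7 CPM (2.05-fold). *Sar1b* went from 39.6, 46.6, 45.7 and 44.2 CPM to 61.6, 63.8, 59.2 and 57.4 CPM (1.37-fold). The groups of all 4 genes stay clear of each other. The outer coat rose too, *Sec31a* by 2.72-fold and *Sec13* by 1.90-fold, and *Sec16a*, the scaffold of ER exit sites, by 2.56-fold.

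The 7 COPI coat genes all rose, within a narrower range than COPII. *Cope*, the ε subunit, was the only one at 2.5-fold or more, at 2.97-fold. *Copa*, *Arcn1*, *Copb1* and *Copg1* rose 2.14-, 2.12-, 2.12- and 2.01-fold, and *Copz1* and *Copb2* 1.70- and 1.64-fold.

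Among the cargo and retrieval receptors, 4 of 5 genes rose, by very different amounts. *Lman1* (ENSMUSG00000041891, chromosome 18, 66113808 to 66155651) encodes ERGIC-53, the lectin that carries glycoproteins such as coagulation factors out of the ER. It had 83.9, 82.2, 92.3 and 84.0 CPM with IL-4/IL-13 and 605.7, 629.4, 662.4 and 581.3 CPM with tunicamycin, so that the lowest treated library lay far above the highest untreated one. Its fold change of 7.24 (log2 2.86, standard error 0.07; edgeR's quasi-likelihood test, adjusted *P* = 5.79e-22) was the largest of the 44. *Lman2*, the related lectin VIP36 of the early secretory pathway, had 312.4, 305.9, 347.2 and 313.4 CPM and 448.7, 445.6, 455.7 and 429.9 CPM. It rose 1.39-fold, with groups that do not overlap.

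The KDEL receptors split in the same way. *Kdelr2* (ENSMUSG00000079111, chromosome 5, 143389580 to 143407659) went from 54.5, 58.2, 62.8 and 55.7 CPM to 234.4, 240.6, 235.4 and 222.3 CPM, a 4.03-fold rise (log2 2.01, standard error 0.07; edgeR's quasi-likelihood test, adjusted *P* = 1.11e-18). *Kdelr1* went from 113.6, 110.3, 122.3 and 111.9 CPM to 190.5, 188.3, 202.7 and 181.8 CPM, a 1.67-fold rise. *Kdelr3* was barely detected, at 4 to 18 counts per library with IL-4/IL-13 and 9 to 17 with tunicamycin. Its levels of 1.00, 0.353, 0.211 and 0.243 CPM and 0.822, 0.809, 0.511 and 0.713 CPM overlap, and a log2 difference of 0.66 was not past the test (standard error 0.49; edgeR's quasi-likelihood test, adjusted *P* = 0.224).

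**Figure D2:**
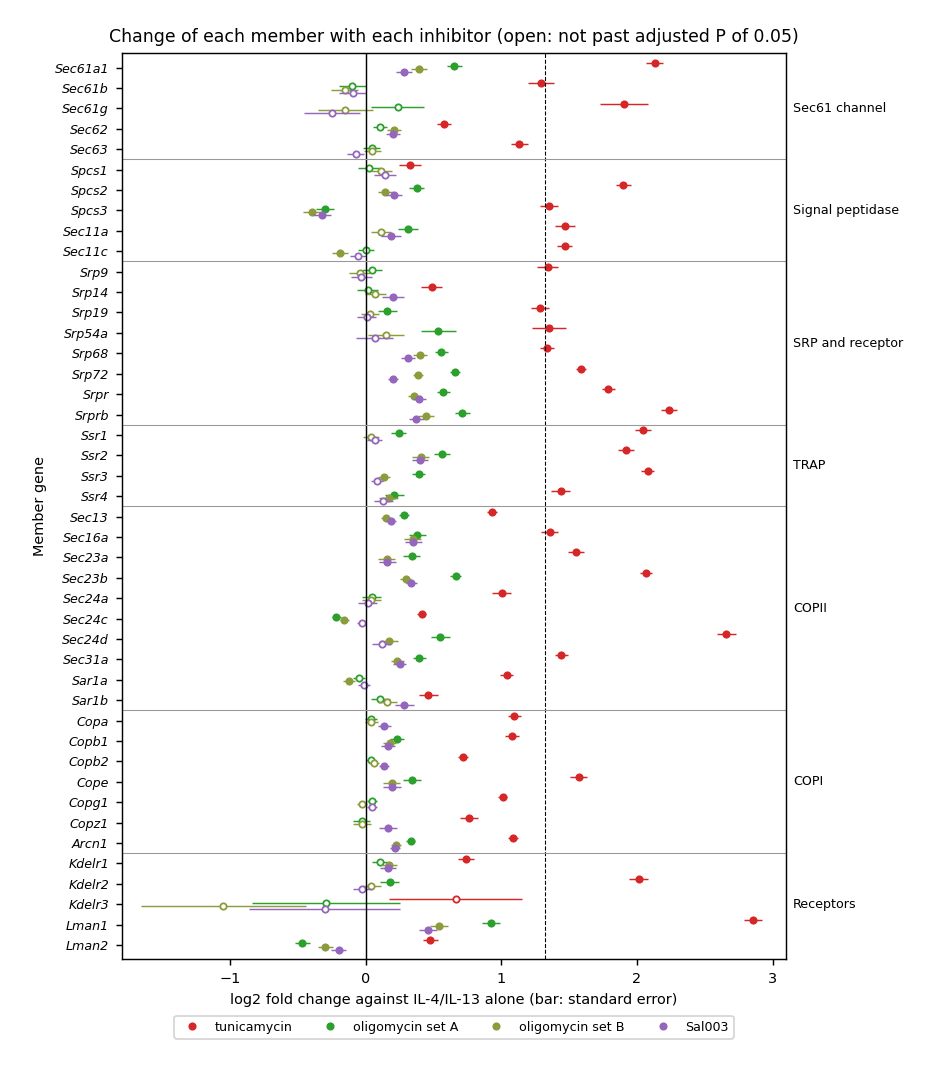
Log2 fold change of each of the 44 genes against IL-4/IL-13 alone (points, with standard error bars) for tunicamycin, both oligomycin sets and Sal003, filled where the adjusted *P* is under 0.05; the dashed line marks 2.5-fold. The tunicamycin points run from 0.33 to 2.86, and no other inhibitor has a point past the dashed line.

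Compared per transcript length, several pairs of related genes changed places. These levels, in TPM, were computed here from counts and transcript lengths, and the ratios below are given with their range over 4 mice and no test. *Sec24d* stood at 0.364 of the level of *Sec24c* with IL-4/IL-13 (range 0.345 to 0.377) and at 1.73 times that level with tunicamycin (1.70 to 1.75). Across the other 5 conditions this ratio was never above 0.653 in a library. *Kdelr2* stood at 0.441 of *Kdelr1* (0.419 to 0.461) and reached 1.07 (1.02 to 1.12), and *Lman1* went from 0.253 of *Lman2* (0.251 to 0.254) to 1.32 (1.28 to 1.38).

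Other pairs kept their order. *Sec11a* stood at 0.456 of *Sec11c* (0.407 to 0.504) without tunicamycin and at 0.458 (0.436 to 0.475) with it. The ratio of *Sec23b* to *Sec23a* went from 2.94 (2.88 to 3.05) to 4.21 (4.02 to 4.40), and that of *Sar1a* to *Sar1b* from 1.39 (1.31 to 1.52) to 2.07 (2.02 to 2.15), in both cases to ranges that do not overlap the earlier ones. Among TRAP subunits *Ssr3* had the highest level per length in both conditions, 329 and 1497 TPM, and among signal peptidase subunits *Sec11c*, 258 and 767 TPM. Without scaling to length, *Sec11c* was below *Spcs2* and *Spcs3*, at 86.0 against 166.9 and 210.0 CPM with IL-4/IL-13. The highest level per length in the COPII group was *Sec13* with IL-4/IL-13, 126 TPM, and *Sec24d* with tunicamycin, 294 TPM.

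**Figure D3:**
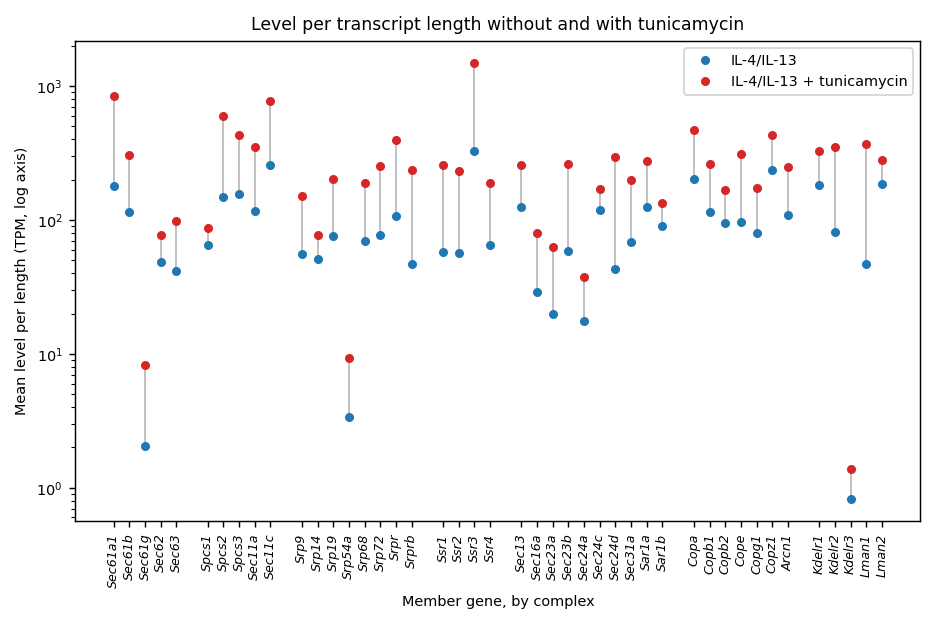
Mean level per transcript length (TPM, log axis) of the 44 genes by complex, with IL-4/IL-13 (blue) and with tunicamycin added (red), n = 4 mice each. The red point is above the blue one for each gene, and *Sec24d* and *Lman1*, at 43.1 and 47.1 TPM without tunicamycin, reach 293.9 and 368.1 TPM.

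The comparison of IL-4/IL-13 with naive macrophages asks what the cytokines alone do to the pathway. The effect was small and mostly upward: 27 of the 44 genes were higher, 2 lower and 15 not past the test, where 30.1% of all genes tested were higher and 30.4% lower (60.5% in either direction). The median log2 fold change was 0.19 over the 44 genes and -0.02 over all genes, and no member reached 2.5-fold in either direction (5.39% of all genes were higher and 6.08% lower by that measure). In 20 of the 44 genes every IL-4/IL-13 library was above every naive library (25.1% of all genes), and in none was every library below (24.6%). Without mouse 2, whose naive library stood apart, the test called 31 of the 44 genes in place of 29.

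One signal peptidase gene led this response. *Spcs3* (ENSMUSG00000054408, chromosome 8, 54973464 to 54983053), an accessory subunit of the complex, had 103.3, 96.0, 105.5 and 100.7 CPM in naive macrophages and 210.0, 210.1, 221.5 and 198.5 CPM after IL-4/IL-13. The groups stand apart, and the fold change was 2.07 (log2 1.05, standard error 0.07; edgeR's quasi-likelihood test, adjusted *P* = 1.46e-12). Per length, *Spcs3* stood at 1.06 times *Spcs2* with IL-4/IL-13 (range 1.02 to 1.09) and between 0.571 and 0.782 of it in every library of the other 5 conditions. All 4 TRAP genes rose, *Ssr1* the most. Its naive levels of 130.5, 130.3, 140.2 and 131.4 CPM lay below every IL-4/IL-13 level given above, a 1.57-fold rise (edgeR's quasi-likelihood test, adjusted *P* = 3.53e-10). *Ssr2* rose 1.34-fold, from 45.5, 56.3, 45.4 and 42.9 CPM to 63.5, 64.4, 66.7 and 60.0 CPM, and *Spcs2* 1.34-fold, from 113.8, 141.1, 127.5 and 117.6 CPM to 161.8, 165.8, 176.1 and 163.8 CPM. Neither overlaps, although the naive library of mouse 2 was the closest to the IL-4/IL-13 range in both. The 2 genes that fell were *Sec62*, by 0.18 on the log2 scale, and *Srp14*, by 0.20, both with overlapping groups but lower in 4 of 4 mice. Without mouse 2 *Srp14* lost the call and most of its difference (log2 -0.08, adjusted *P* = 0.192). Without mouse 4 or 5 its difference was as large (-0.21 and -0.23) but not past the test (adjusted *P* = 0.071 and 0.0526, edgeR's quasi-likelihood test). The call of *Sec62* was lost without a filter on low counts (adjusted *P* = 0.0543, edgeR's quasi-likelihood test).

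**Figure D4:**
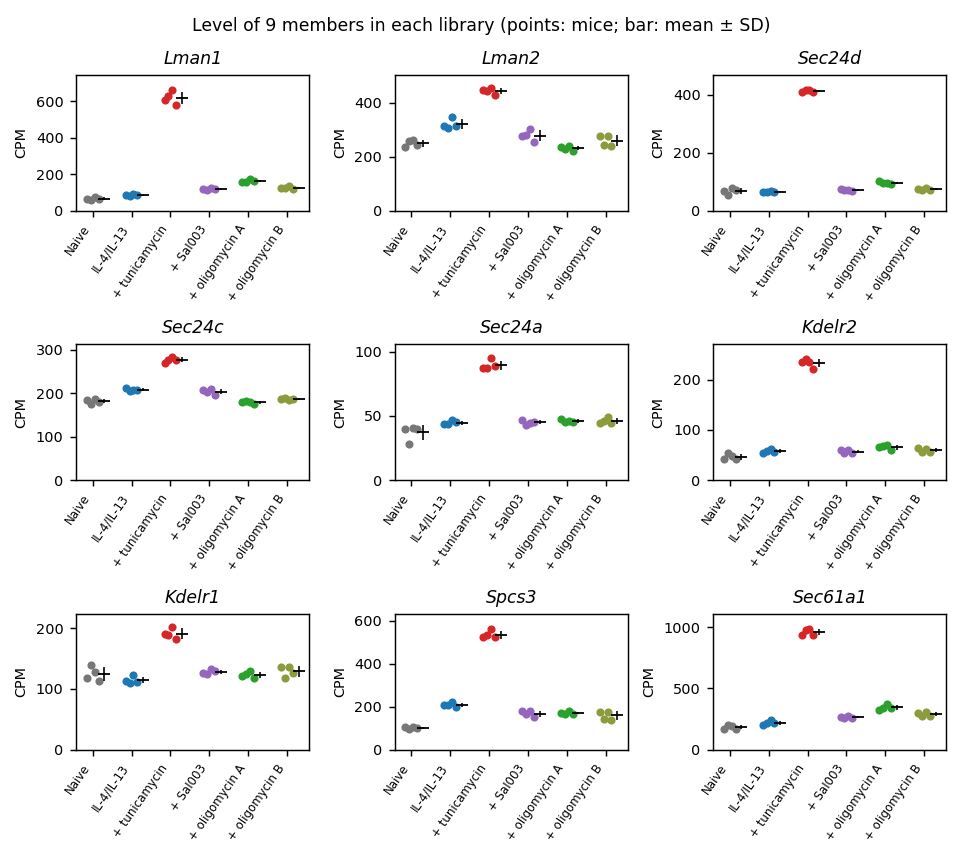
Level (CPM) of 9 genes in each library, by condition (4 mice each, with mean ± SD as a black bar). The tunicamycin points are highest in every panel, *Spcs3* doubles between naive and IL-4/IL-13 (101.4 to 210.0 CPM), and *Lman1* and *Lman2* move in opposite directions with oligomycin and Sal003.

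The comparison of Sal003 with IL-4/IL-13 alone asks about an agent that prolongs eIF2α phosphorylation without a block of glycosylation. The pathway responded weakly: 24 of the 44 genes were higher, 2 lower and 18 not past the test (25.9% of all genes higher, 24.6% lower, 50.6% in all). The median log2 fold change was 0.15 against 0.00 over all genes, and the groups did not overlap in 25 genes upward (26.0% of all genes) and 2 downward (24.3%). Without mouse 1, 14 of the 44 genes were called in place of 26, and the share called among all genes also fell, to 41.4%. Differences of genes that lost the call could stay about as large with a wider error, as in *Sec11a* (log2 0.19 with all mice, standard error 0.07, and 0.18, standard error 0.09, without mouse 1). The 4 largest rises were those of a cargo receptor, a TRAP subunit and both subunits of the SRP receptor. *Lman1* had 118.1, 114.1, 122.7 and 115.9 CPM (1.38-fold), *Ssr2* 86.1, 82.9, 81.8 and 84.7 CPM (1.32-fold), *Srpr* 166.1, 169.9, 160.0 and 171.3 CPM (1.31-fold, from 121.1, 126.7, 137.0 and 123.5 CPM) and *Srprb* 73.1, 73.2, 73.0 and 67.9 CPM (1.30-fold). All 4 stayed above the IL-4/IL-13 libraries (adjusted *P* = 1.8e-06, 4.53e-06, 1.95e-07 and 5.02e-06 in edgeR's quasi-likelihood test). The 2 genes that fell were *Spcs3*, 1.25-fold lower, and *Lman2*, 1.15-fold lower, both without overlap.

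Oligomycin raised part of the machinery, in set A more than in set B. In set A 24 of the 44 genes were higher than with IL-4/IL-13 alone, 3 lower and 17 not past the test (34.0% of all genes higher, 32.2% lower, 66.2% in all), with a median log2 fold change of 0.22 against 0.01 over all genes. In set B 21 were higher, 5 lower and 18 not past the test (27.9% higher and 26.4% lower of all genes, 54.3% in all), with a median of 0.14 against 0.00. No gene of the 44 was called at 2.5-fold in either set, where 4.79% of all genes were higher and 7.96% lower in set A and 2.94% and 5.02% in set B. Every set A library was above every IL-4/IL-13 library in 23 of the 44 genes (33.3% of all genes) and below in 3 (31.5%), and every set B library above in 18 (26.2%) and below in 5 (24.6%). Without mouse 1 the count called in set B was 15 in place of 26, and the share of all genes called was 45.5%. *Ssr4* and *Sec24d* lost the call there at log2 differences of 0.14 and 0.14, against 0.17 and 0.17 with all mice.

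Some genes of each complex were higher in set A, where 34.0% of all genes were. The counts were 1 of 5 for the channel, 2 of 5 for signal peptidase, 6 of 8 for SRP and its receptor and 4 of 4 for TRAP. For COPII they were 6 of 10, for COPI 3 of 7 and for the receptors 2 of 5. Signal peptidase, COPII and the receptors each had 1 lower gene. Median log2 fold changes were 0.545 for SRP and its receptor, 0.316 for TRAP and 0.31 for COPII. They were 0.108 for the channel, 0.023 for signal peptidase, 0.043 for COPI and 0.105 for the receptors. The calls of *Srp19* and *Kdelr2* were lost under most alternatives, with DESeq2 at adjusted *P* = 0.111 and 0.0717. *Lman1* had 155.1, 157.9, 173.3 and 162.7 CPM in set A and 122.8, 124.8, 132.3 and 118.0 CPM in set B, 1.90-fold and 1.45-fold above IL-4/IL-13 alone (adjusted *P* = 4.34e-12 and 1.25e-07, edgeR's quasi-likelihood test). *Srprb* had 89.2, 89.4, 92.2 and 92.3 CPM in set A and 75.9, 74.8, 77.6 and 73.3 CPM in set B (1.64-fold and 1.36-fold). Set A, set B and IL-4/IL-13 alone form 3 steps without overlap in both genes. *Sec23b* had 99.9, 99.5, 100.6 and 101.7 CPM in set A and 81.6, 76.5, 75.2 and 78.0 CPM in set B (1.58-fold and 1.23-fold). *Srp72* had 168.3, 176.1, 171.2 and 173.9 CPM in set A and 145.9, 140.8, 141.9 and 140.8 CPM in set B (1.58-fold and 1.30-fold), from 111.0, 107.0, 109.7 and 108.8 CPM. These 2 genes show the same steps. *Sec61a1* rose 1.57-fold in set A and 1.31-fold in set B, while the other 4 channel genes were not past the test in set A. With the mouse as a block *Sec62* was (log2 0.11, adjusted *P* = 0.0229). Of the TRAP calls in set A, that of *Ssr4* was lost without mouse 1 or 4 (adjusted *P* = 0.0631 and 0.0735, edgeR's quasi-likelihood test). In set B *Ssr2* had 85.5, 83.5, 86.6 and 81.3 CPM, a 1.32-fold rise without overlap.

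A few genes were lower with oligomycin. *Lman2* had 234.2, 229.5, 239.1 and 221.1 CPM in set A and 277.4, 243.5, 277.2 and 241.3 CPM in set B, 1.38-fold and 1.23-fold lower than with IL-4/IL-13 alone (adjusted *P* = 7.25e-08 and 7.31e-05, edgeR's quasi-likelihood test). *Spcs3*, the gene most raised by the cytokines, had 171.1, 165.4, 179.7 and 166.8 CPM in set A and 176.5, 144.9, 176.8 and 139.6 CPM in set B, 1.23-fold and 1.32-fold lower. *Sec24c* was 1.16-fold and 1.12-fold lower. None of these groups overlaps IL-4/IL-13 alone, and all 3 genes were above it with tunicamycin. In set B *Sec11c* and *Sar1a* were also lower, 1.14-fold and 1.09-fold. The groups of *Sec11c* overlap, and neither call held throughout: that of *Sec11c* was lost without mouse 1 or 2 (adjusted *P* = 0.0695 and 0.0587) and that of *Sar1a* without mouse 2 or 5 (0.0878 and 0.0943) or without a filter on low counts (0.0976, edgeR's quasi-likelihood test).

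Set against each other, set A was higher in 19 of the 44 genes, lower in 1, *Lman2*, and not past the test in 24 (19.9% of all genes higher, 21.3% lower, 41.2% in all). The median log2 fold change was 0.13 against -0.00 over all genes. Groups did not overlap in 21 of the 44 genes upward (20.5% of all genes) and 2 downward (21.1%). The 4 largest differences were in *Lman1* (1.30-fold), *Srp54a* (1.30-fold), *Sec24d* (1.30-fold) and *Sec23b* (1.29-fold), with adjusted *P* = 2.7e-05, 0.0176, 6.83e-05 and 8.04e-08 in edgeR's quasi-likelihood test. *Sec24d* had 101.1, 95.1, 94.5 and 91.9 CPM in set A and 73.9, 71.5, 77.5 and 71.6 CPM in set B. *Srp54a*, with its near-identical copies, had 10.0, 8.18, 9.38 and 6.80 CPM and 6.61, 6.78, 6.79 and 6.27 CPM. In *Srp54a* set A reaches down to the edge of set B, and its call was lost without mouse 1 (adjusted *P* = 0.0884) or mouse 4 (0.0924). Without mouse 4 the test called 13 of the 44 genes in place of 20, and 34.9% of all genes, and *Lman2* was not called without mouse 1 (adjusted *P* = 0.17) or with upper-quartile normalization (0.0567, edgeR's quasi-likelihood test). If the titles hold, the libraries with ISRIB are the higher ones, and if the library names hold, they are the lower ones. *Atf4*, the transcription factor of the integrated stress response, was higher in set A than in set B (log2 0.56, adjusted *P* = 7.22e-07, edgeR's quasi-likelihood test). No library was assigned from it.

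Tunicamycin was also compared with each other inhibitor, which tests whether the response differed in size. It was higher than set A in 43 of the 44 genes (31.4% of all genes), than set B in 44 (35.4%) and than Sal003 in 43 (35.9%), and lower in none (32.1%, 35.7% and 36.0% of all genes). The median log2 differences were 1.09, 1.23 and 1.28, and at least 2.5-fold differences were found in 14, 20 and 19 genes (5.64%, 7.19% and 7.80% of all genes). All 44 genes had their highest group mean with tunicamycin, and in 41 every tunicamycin library was above every library of the other conditions. The share over all genes was not computed for these counts, so how unusual they are is not known. *Kdelr3* was the gene not called against set A and Sal003, and it was called there with the mouse as a block (adjusted *P* = 0.02 and 0.0204, edgeR's quasi-likelihood test). These comparisons share the tunicamycin libraries, and those against IL-4/IL-13 share its libraries.

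The other genes of the early secretory pathway, 88 tested genes in 5 lists, moved in the same direction with more exceptions. With tunicamycin 68 were higher, 9 lower and 11 not past the test (38.7% of all genes higher, 37.6% lower). The median log2 fold change was 0.67, against 0.01 over all genes. By list this median was lowest, at 0.33, for other translocon and membrane insertion genes, of which 17 of 26 were higher. Higher genes were 18 of 24 in the list of other COPII and ER exit genes and 15 of 18 in that of other COPI genes. Of the oligosaccharyltransferase genes 10 of 12 were higher and 1, *Tusc3*, lower, and all 8 genes of p24 cargo receptors were higher. The largest rise was that of *Mcfd2*, the partner with which LMAN1 binds its cargo, at log2 3.06 (standard error 0.04), and per length *Lman1* stood at 0.426 of *Mcfd2* with IL-4/IL-13 and at 0.370 with tunicamycin. *Krtcap2* and *Ostc*, small subunits of oligosaccharyltransferase, followed at 2.61 and 2.22, then *Arfgap3*, which acts on COPI vesicles, and *Stt3a*, a catalytic subunit of oligosaccharyltransferase, both at 2.19. Paralogs of the 44 genes were among those that fell: *Sec24b* by 0.65, *Sec31b* by 0.80 and *Lman2l* by 0.54 on the log2 scale.

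The stress-response genes given here moved differently among the inhibitors. *Ddit3*, *Atf6*, *Dnajb9* and *Sdf2l1* were on the same list and are not described. *Hspa5*, which encodes the ER chaperone BiP, was at 1073 ± 92.6 CPM with IL-4/IL-13, 12370 ± 782 CPM with tunicamycin, 997 ± 77.5 CPM in set A, 830 ± 54.4 CPM in set B and 1130 ± 18.6 CPM with Sal003 (mean ± SD, n = 4 mice). It rose with tunicamycin and fell in set B (log2 3.53 and -0.37, adjusted *P* = 5.36e-23 and 4.39e-05), and was not past the test in set A and with Sal003 (adjusted *P* = 0.167 and 0.374, edgeR's quasi-likelihood test). *Atf4* rose in all 4, by log2 3.01, 2.38, 1.82 and 0.61 with tunicamycin, in set A, in set B and with Sal003. *Creb3l2*, a factor known to drive secretory genes in other cells, rose with tunicamycin (log2 1.29, adjusted *P* = 3.81e-15, edgeR's quasi-likelihood test), as did *Creb3* (0.82), *Xbp1* (0.45) and *Creb3l1* (0.41). The part of these factors in the rise of the 44 genes was not tested.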

How the data were processed

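Mouse bone marrow–derived macrophages were profiled by RNA sequencing with single reads of 150 bases. Per the labels and the study's methods, the authors trimmed reads with Cutadapt 1.8, aligned them with STAR 2.7 to GRCm39 with Ensembl 110 genes and deposited raw counts per gene from HTSeq 0.9.1; the strand setting is not given in the sources used here. The submitters' notes also list RSEM 1.2.31. The deposited TPM file was not used, because its 28 header names stand over 25 cells per line. Non-gene totals, 12.7% to 15.2% of each library, were left out.

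Counts were tested with the quasi-likelihood test of edgeR 4.0.16 in R 4.3.3: 1 model over 24 libraries, TMM normalization, the filterByExpr filter and Benjamini-Hochberg adjustment over 13679 genes, with a call at an adjusted *P* under 0.05. The scripts were tested on simulated data. DESeq2 1.42.0, upper-quartile normalization, other filters, a mouse block, only the compared groups and each mouse left out (all its 6 libraries) were alternatives. Same-numbered libraries come from the same mouse, and their deviations from group means correlated at a median of 0.24 (56 of 60 pairs over 0.1), against -0.054 for different mice. The 44 genes, the lists and the tests were chosen with earlier results of these data known. All 44 genes are accounted for; values per library are given for the 8 largest called changes with tunicamycin, the 4 largest in each other comparison with IL-4/IL-13 or naive and between the oligomycin sets, and paralogs beside them, and for *Lman2* and *Spcs1*, chosen after their values were seen. Of the other secretory genes the 5 largest changes are named, with those that fell chosen likewise. Levels per length use 1 canonical transcript length per gene from GENCODE M39, and which transcripts the cells expressed was not tested. Promoter windows are from RefSeq (GRCm38.p6).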

Additional observations from a re-analysis of the deposited data

Results flagged for a closer look

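In 16 of 264 sets of 4 libraries (44 genes in 6 conditions), 1 library lay far from the other 3 by Dixon's test at 95%; chance alone gives about 1 in 20. No explanation was tested. Of these, 6 are in the naive library of mouse 2. It was above the other naive libraries in *Sec61b* (57.2 CPM, the others 35.0 to 38.1), *Spcs1* (107.9, the others 73.4 to 77.5) and *Srp14* (106.7, the others 74.8 to 76.6). It was below them in *Srp72* (87.6, the others 96.8 to 97.8), *Sec24a* (28.4, the others 40.0 to 40.7) and *Arcn1* (185.1, the others 198.7 to 200.6). The naive library of mouse 4 was high in *Ssr1* (140.2 CPM, the others 130.3 to 131.4).

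With IL-4/IL-13 alone, mouse 5 was low in *Srp19* (25.9 CPM, the others 27.6 to 27.9). With Sal003, mouse 5 was low in *Srprb* (67.9 CPM, the others 73.0 to 73.2) and mouse 2 in *Copz1* (165.2, the others 171.2 to 172.4). In set A, mouse 4 was high in *Ssr2* (102.0 CPM, the others 90.6 to 91.9), *Ssr4* (110, the others 94.3 to 96.4) and *Cope* (130.4, the others 119.6 to 121.0). In set B, mouse 2 was low in *Sec13* (70.5 CPM, the others 74.1 to 74.6) and mouse 5 in *Copb1* (155.7, the others 180.0 to 183.2). With tunicamycin, mouse 4 was high in *Sec24a* (94.7 CPM, the others 87.2 to 88.5), and these 4 libraries remained above all IL-4/IL-13 libraries.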

How the results depend on the processing

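No direction of a called gene reversed under any alternative. Leaving out each mouse in turn, the number of the 44 genes called ran from 24 to 31 for IL-4/IL-13 against naive (29 with all mice), 43 to 43 for tunicamycin against IL-4/IL-13, 14 to 27 for Sal003 (26), 24 to 27 for set A (27), 15 to 25 for set B (26) and 13 to 20 for set A against set B (20). For tunicamycin against set A, set B and Sal003 it ran from 43 to 43, 43 to 44 and 41 to 43. Over all genes tested, 52.5% to 60.1% were called without a mouse for IL-4/IL-13 against naive (60.5% with all mice). The share was 71.5% to 73.9% for tunicamycin (76.3%), 41.4% to 48.8% for Sal003 (50.6%) and 60% to 64.2% for set A (66.2%). It was 45.5% to 52.1% for set B (54.3%) and 31.9% to 39.2% for set A against set B (41.2%). In the last 3 comparisons it was 57% to 60.7% (63.5%), 65.2% to 69% (71.1%) and 67.1% to 70% (71.9%). With the mouse as a replicate block, which pairs the libraries, the counts were 30, 43, 26, 28, 27 and 21, and 44 in each of the last 3. The shares of all genes called were then 63.7%, 78.3%, 53.4%, 68.7%, 57.5% and 44.3%, and 66%, 73.4% and 74.3% in the last 3. The block lost no call and added 6. Among those added was *Kdelr1* for IL-4/IL-13 against naive (log2 -0.12, adjusted *P* = 0.0494, edgeR's quasi-likelihood test). Others were *Sar1b* in set B (0.16, 0.0349) and *Sec62* for set A against set B (-0.10, 0.0466, edgeR's quasi-likelihood test). Counts under the other settings stayed within 1.5 times, the lowest being 21 for IL-4/IL-13 against naive with only those groups fitted, 19 for Sal003 and for set B with upper-quartile normalization and 17 for set A against set B without a filter on low counts. In these fits 54.4%, 50%, 53.8% and 18.2% of all genes tested were called, the last over 27890 genes. Fewer libraries entered each fit without a mouse; other causes were not tested. In set B the calls of *Spcs2*, *Ssr4*, *Sec24d* and *Sec23a* were lost with DESeq2 (adjusted *P* = 0.0668, 0.0599, 0.0731 and 0.0912) and most other settings. *Kdelr3*, at 2 to 18 counts per library, and *Sec61g* had few counts, and the reason was not tested.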
